A study of Mus musculus with 4 samples.

Results

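The mitochondrial carriers are a family of transporters, named Slc25 genes, that move metabolites across the inner mitochondrial membrane. The members described here are the rows of the deposited expression table whose symbol begins with Slc25a, with any pseudogene symbol left out. There were 34 such genes among the 10790 genes of the table, and 34 of 34 passed the filter for low values. RNA came from whole lenses of mice at postnatal day 4. The study set lenses of mice with the genotype Tdrd7 -/-, called null here, against those of wild type control mice. Each genotype had 2 libraries, and each library was a pool of 15 lenses. The sources used here name no treatment, strain or sex and do not say how the Tdrd7 allele was made. Tdrd7 encodes a Tudor-domain protein of RNA granules, and its loss causes cataract.

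Carriers of this family share a fold of 3 related repeats, and each exchanges or imports a narrow set of substrates. Together they supply the mitochondrial matrix with ADP, phosphate, fuel and cofactors and send ATP and intermediates back to the cytosol. In the lens the epithelial cells keep their mitochondria, whereas fiber cells degrade theirs as they mature. In a whole lens, fewer cells of a type and less RNA per cell cannot be told apart.

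The libraries held between 33920522 and 42767535 reads in the listed genes, as inferred from the spacing of the deposited values, which is taken as 1 read. The deposited values, called scaled reads, have the form of read counts divided by 1 factor per library and carry no correction for gene length. Tdrd7 itself held 1188 and 972 scaled reads in the controls (replicates 1 and 2, the order kept below) against 165 and 96.6 in the null libraries, so the targeted gene followed the labels. All 12 lens markers checked, among them Cryaa, Mip and Foxe3, were present, and crystallins took 59.7% to 63.0% of scaled reads. Of the markers of red blood cells (8), skeletal muscle (8), macrophages (8), retina (9) and brown fat (5), 0 were among the listed genes. Their levels are therefore not known here. Of 8 endothelial markers 6 were measured, at summed levels of 18.4 and 11.2 scaled reads in the control and 13.7 and 19.2 in the null libraries. The sums over 3 measured pericyte markers were 45.5 and 35.7 in control and 30.3 and 33.5 in null libraries. The labels call the pools biological replicates and say no more of the animals behind them, so p-values measure the spread between these pools.

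Mitochondrial carrier mRNA in the newborn lens was dominated by few genes. To compare genes, the scaled reads were divided by the length of each gene's principal coding transcript. On this scale the ADP/ATP carrier Slc25a4 was the most abundant, at 141 and 146 scaled reads per kilobase in control replicates 1 and 2 and 150 and 148 in null replicates 1 and 2. The phosphate carrier Slc25a3 followed at 75.8 and 82.2 in control and 81.5 and 80.4 in null libraries. Next came Slc25a5, the other measured ADP/ATP carrier, at a mean of 51.0 scaled reads per kilobase over the 4 libraries. Slc25a39, which takes up glutathione, and Slc25a11, which exchanges oxoglutarate for malate, had means of 36.2 and 22.8. The first 3 genes made up 61.1% and 61.9% of the summed carrier level per kilobase in control and 63.5% and 64.3% in null lenses.

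Below these genes the levels ran together. Neighbours in the order from Slc25a4 to Slc25a36 were separate in all 4 libraries, but over the whole order of 34 genes 11 of 33 neighbouring pairs were. The lowest means were those of Slc25a42, a coenzyme A carrier, at 0.351 scaled reads per kilobase, and Slc25a32, linked to folate and FAD transport, at 0.308. The median over the 34 genes was 3.09, and over all 10656 tested genes with a known length it was 3.78. Slc25a4 lay at percentile 98.4 of those genes, Slc25a3 at 97.1 and Slc25a5 at 95.2. The place of Slc25a3 rests on its length. With the longest annotated transcript in place of the principal transcript it stood at 31.9 scaled reads per kilobase and ranked 4, behind Slc25a5 and Slc25a39, while Slc25a4 ranked 1 with either length.

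**Figure D1:**
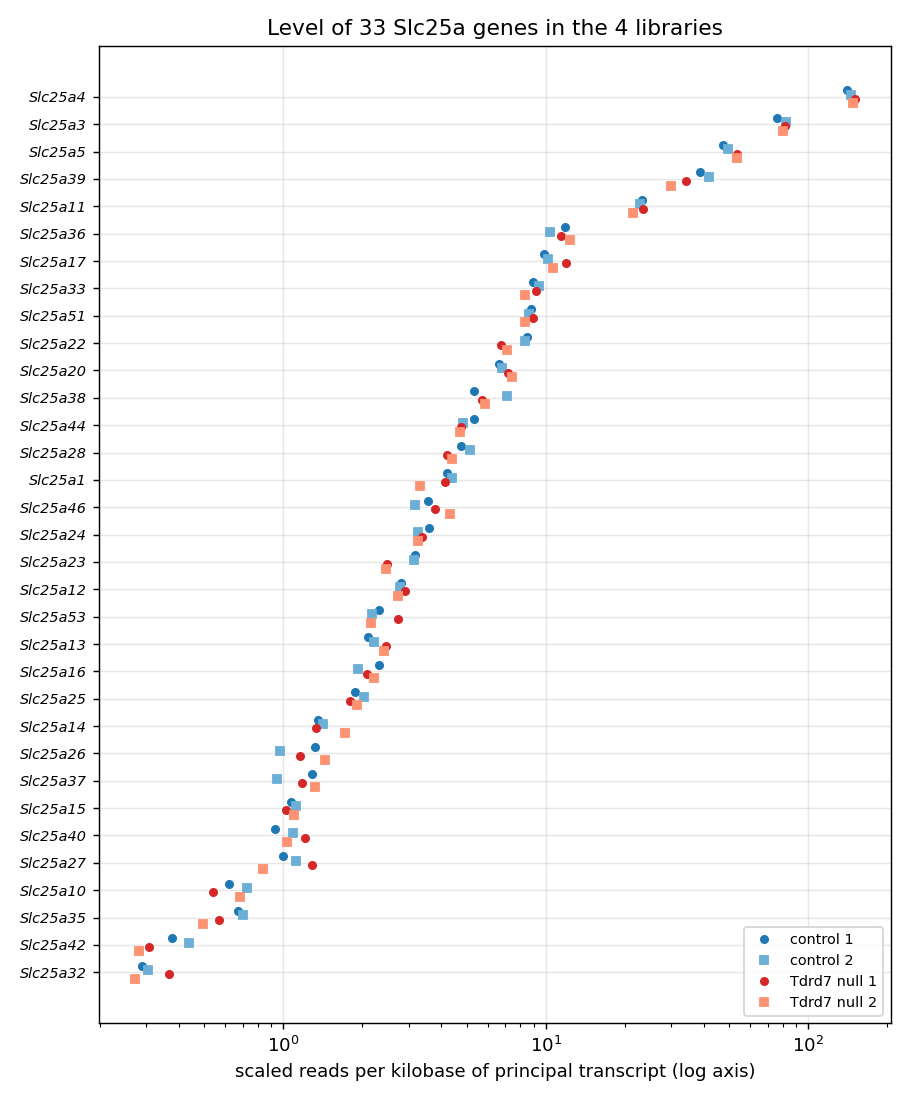
Levels of 33 Slc25a genes in scaled reads per kilobase of principal transcript (log axis), 1 point per library, with control libraries in blue and null libraries in red. Slc25a4, Slc25a3 and Slc25a5 lie at the top and Slc25a32 and Slc25a42 at the bottom, and the points of a gene lie close together beside the range over genes.

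Between the genotypes the carriers differed little. Of 34 genes, 3 fell in the null lenses and 0 rose (limma adjusted p under 0.05), against 7.88% lower and 10.1% higher among all 10696 tested genes (18% together). The 3 genes are 8.82% of the family, close to the background of lower genes and below that of both directions together. An unadjusted p under 0.05 was reached by 5 carriers, where 33.1% of all genes reached it. The median log2 fold change over the carriers was -0.02, beside -0.005 over all tested genes, and the values ran from -0.33 to 0.25. In 29 of 34 genes the change was under 0.2 on the log2 scale and in 17 it was under 0.1, while the typical difference between replicates of 1 genotype (the median over the carriers) was 0.088 in control and in null lenses alike. The tested scale adds 1 to each value and so understates the changes of low genes. With 0.1 added in its place, Slc25a42 went from -0.24 to -0.42 and Slc25a35 from -0.20 to -0.34, neither called. Summed over the family, the carriers took 883 and 901 scaled reads in control and 904 and 887 in null lenses. Those sums overlapped, with means of 892 ± 12.5 and 895 ± 12 (SD, n = 2, exact permutation p = 0.667, two-sided, where 2 against 2 cannot go below 0.333).

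**Figure D2:**
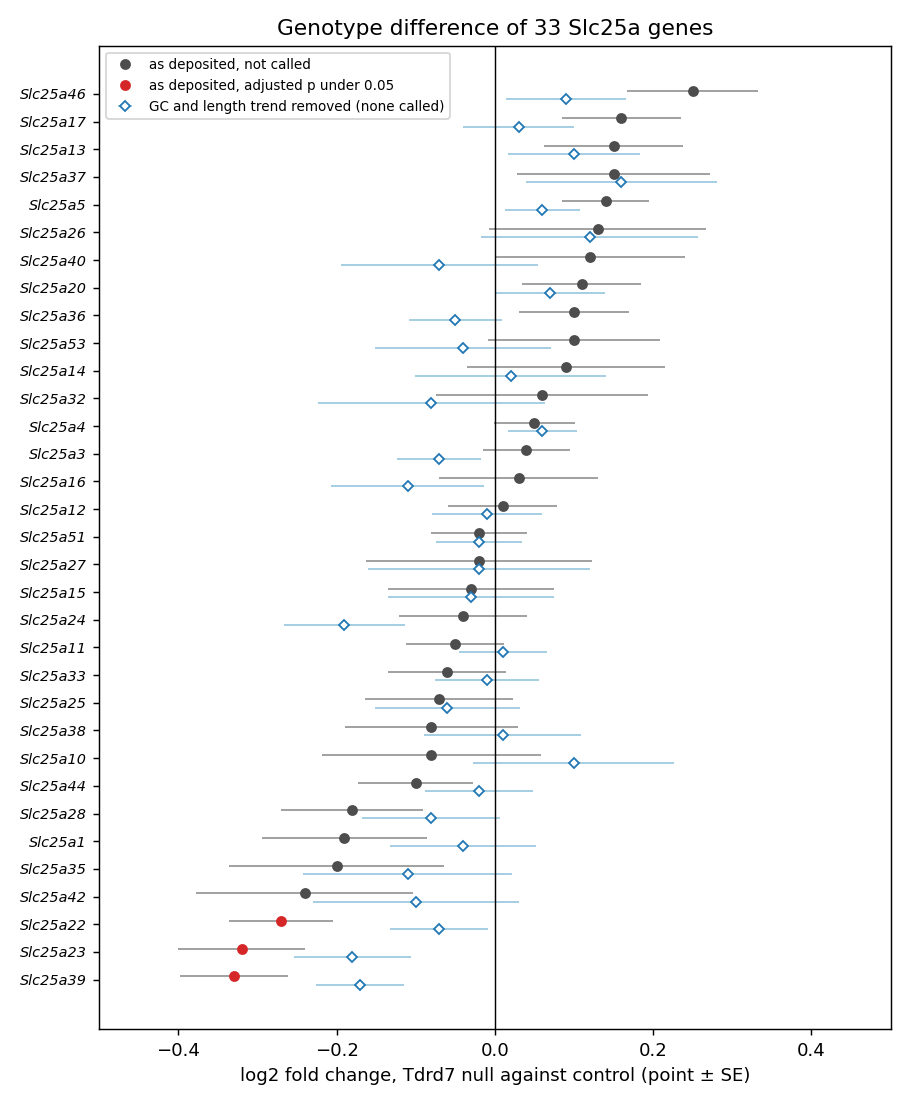
Difference of 33 Slc25a genes between null and control lenses as log2 fold change with its standard error, for values as deposited (filled circles, red where called) and after removal of the trend on GC content and length (open diamonds). Slc25a39, Slc25a23 and Slc25a22 stand at the lower end and lie nearer to 0 as open diamonds.

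The carrier with the smallest adjusted p was Slc25a39 (ENSMUSG00000018677, chromosome 11, 102402985 to 102407946, coordinates as deposited for GRCm38). It imports glutathione into mitochondria. Its level was 65.3 and 70.7 scaled reads in control replicates 1 and 2 and 57.5 and 50.6 in null replicates 1 and 2. Both null libraries lay below both control libraries, at 0.797 of the control level on the tested scale (log2 fold change -0.33, SE 0.0681, limma adjusted p = 0.00753). Without control replicate 2 the limma call was lost, at a log2 fold change of -0.27.

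Slc25a23 (ENSMUSG00000046329, chromosome 17, 57043711 to 57059863) fell by a like amount. It is a calcium-regulated carrier that exchanges ATP-magnesium for phosphate. The control libraries held 10.7 and 10.6 scaled reads and the null libraries 8.35 and 8.25, so that the groups were separate and the replicates close (log2 fold change -0.32, SE 0.0805, limma adjusted p = 0.0177). The limma call was lost without either control library and without null replicate 2. The log2 fold change was -0.32 and -0.33 without control replicates 1 and 2, and -0.33 and -0.31 without null replicates 1 and 2. Slc25a23 shares 168 nt of exon with the antisense gene Gm17168, and the library kit does not mark strand.

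Slc25a22 (ENSMUSG00000019082, chromosome 7, 141429739 to 141437892) encodes a glutamate carrier. It stood at 23.9 and 23.4 scaled reads in control and 19.0 and 19.9 in null libraries, again without overlap (log2 fold change -0.27, SE 0.066, limma adjusted p = 0.0162). Without control replicate 1 or 2 the limma call was lost, at log2 fold changes of -0.25 and -0.28. With libraries scaled to their total count the limma adjusted p was 0.0855. Of the 3 measured pericyte markers, Notch3 and Pdgfrb fell as well (log2 fold change -0.50 and -0.34), while Rgs5 overlapped between the genotypes at a log2 fold change of 0.35. Notch3 made the largest part of their sum, at 27.1 and 22.6 scaled reads in control and 16.5 and 18 in null libraries. With the trend on GC content and length removed, as described below, Notch3 stood at -0.26, Pdgfrb at -0.19 and Rgs5 at 0.19. None of these passed limma on that scale (adjusted p = 0.105, 0.254 and 0.747). The part of these markers in the 3 decreases was not tested.

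The 3 transcripts that fell are rich in G and C. Base composition is given here because, over all tested genes, the genotype difference ran with the GC content of the transcript. The part of GC content in the 3 decreases was not tested. The longest transcripts of Slc25a39, Slc25a22 and Slc25a23 are 59.7%, 57.6% and 56.4% GC, beside a median of 49.6% over all tested genes. To show this, a coding stretch of 90 bases is printed for each, and for 3 of the 4 carriers poorest in GC, Slc25a40 (39.4%), Slc25a36 (40.7%) and Slc25a32 (41.2%). Each lies within 1 coding exon and was taken where its GC content is nearest to that of the whole transcript, from GENCODE M21 (GRCm38), 5′ to 3′ on the gene's strand, with every G and C in capitals. The stretches are chr11:102405734-102405823 (minus strand, exon 5), chr7:141433923-141434012 (minus, exon 3), chr17:57058122-57058211 (minus, exon 2), chr5:8430412-8430501 (plus, exon 5), chr9:97093081-97093170 (minus, exon 4) and chr15:39105866-39105955 (minus, exon 2), in the order shown.
Slc25a39: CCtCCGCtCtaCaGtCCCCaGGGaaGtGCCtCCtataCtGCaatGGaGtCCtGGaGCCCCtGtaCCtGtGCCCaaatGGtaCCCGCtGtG
Slc25a22: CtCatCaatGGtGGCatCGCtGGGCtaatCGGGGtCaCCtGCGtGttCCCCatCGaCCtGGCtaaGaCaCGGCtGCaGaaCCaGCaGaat
Slc25a23: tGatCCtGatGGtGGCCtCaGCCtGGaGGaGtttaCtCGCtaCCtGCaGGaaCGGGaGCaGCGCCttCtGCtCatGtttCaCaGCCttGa
Slc25a40: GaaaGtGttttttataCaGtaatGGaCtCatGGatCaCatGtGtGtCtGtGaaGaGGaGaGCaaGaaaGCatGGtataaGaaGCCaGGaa
Slc25a36: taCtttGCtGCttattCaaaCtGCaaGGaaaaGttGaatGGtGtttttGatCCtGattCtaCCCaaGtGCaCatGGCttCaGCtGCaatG
Slc25a32: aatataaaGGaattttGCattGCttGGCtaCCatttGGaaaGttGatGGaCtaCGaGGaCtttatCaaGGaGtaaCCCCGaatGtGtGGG
Capitals take 60%, 57.8% and 56.7% of the first 3 stretches and 40%, 41.1% and 41.1% of the others. None of these 3 GC-poor genes was called, and their log2 fold changes were 0.12, 0.10 and 0.06. The other of the 4, Slc25a46 (40.7% GC), for which no stretch is shown, was not called either but stood higher, at 0.25 (limma adjusted p = 0.0559).

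Across the family the genotype difference went with GC content. When all tested genes were split into 3 equal classes at 46.5% and 52.8% GC, 13 carriers lay in the GC-rich class, and 13 of these 13 had a log2 fold change below 0 (median -0.18, from -0.33 to -0.05), where the median of all genes in that class was -0.13. All 3 called carriers belong to it, in a class where 18.9% of all genes were called lower. Most genes of that class stood below 0 as well. The upper quartile over all tested genes was 0.015 at 52% to 54% GC and -0.025 at 54% to 56%. Of the 9 carriers in the GC-poor class 8 stood above 0, with a median of 0.10 beside 0.13 for all genes there, and 0 of the 9 were called where 23.8% of all genes in the class were called higher. For all tested genes the lower quartile was 0.072 at 40% to 42% GC and -0.003 at 44% to 46%. In the middle class 8 of 12 carriers stood above 0, with a median of 0.07 beside -0.01. As a description across the 34 genes, which share the same 4 libraries, the correlation of GC content with the log2 fold change was -0.769 by Pearson and -0.776 by Spearman, beside -0.594 and -0.623 over all tested genes.

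With the trend of each library on GC content and transcript length removed, 0 of 34 carriers were called by limma, where 3.28% of all genes were (1.95% higher and 1.33% lower). An unadjusted p under 0.05 was reached by 3 carriers, beside 18.7% of all genes. Slc25a39 then stood at -0.17 (SE 0.0559, adjusted p = 0.116), Slc25a23 at -0.18 (SE 0.0741, adjusted p = 0.214) and Slc25a22 at -0.07 (SE 0.0618, adjusted p = 0.575). The standard errors were no larger than before, and the differences were smaller. The Benjamini-Hochberg adjustment was also stricter, with 350 genes called in all against 1920. Slc25a39 had an unadjusted limma p of 0.00922 here. As deposited, an unadjusted limma p of 0.0108 (Slc25a46) gave an adjusted p of 0.0559. The part of each in the lost calls was not tested. The carrier with the lowest value on this scale was Slc25a24, another ATP-magnesium and phosphate exchanger. It is poor in GC (42.5%) and stood at -0.04 as deposited and at -0.19 with the trend removed (unadjusted p = 0.029, limma adjusted p = 0.209). After the removal 10 of the 34 genes had the opposite sign, and none of these was called on either scale.

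**Figure D3:**
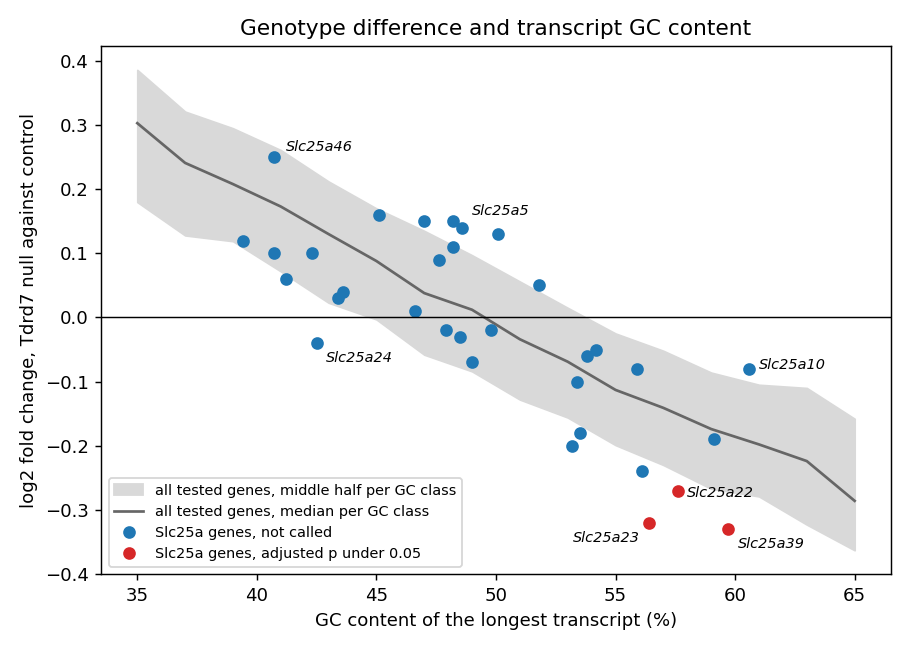
Log2 fold change of null against control lenses (vertical axis) and GC content of the longest transcript in percent (horizontal axis) for 33 Slc25a genes, over the median and interquartile range of all tested genes in classes of GC content. The carriers slope down with the other genes, and the 3 called genes lie at the GC-rich end, below the grey band.

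Among the carriers of adenine nucleotides and coenzyme A, 0 of 8 rose and 1, Slc25a23, fell. Of all tested genes 10.1% were higher and 7.88% lower. Slc25a4 was at 272 and 281 scaled reads in control and 288 and 284 in null libraries, which was higher in both null libraries but by a log2 fold change of 0.05 (95% interval -0.06 to 0.16, limma adjusted p = 0.555). It was counted with 10086 to 11900 reads per library, the most of any carrier. Slc25a5 stood at 58.6 and 61.5 in control and 66.1 and 66.6 in null libraries. That is a log2 fold change of 0.14 (interval 0.02 to 0.26), with an unadjusted p of 0.023 and a limma adjusted p of 0.0909. Its transcript matches the processed pseudogenes Gm5529 and Gm5560 over 900 and 887 nt at 96.8% and 98.3% identity, so its count is uncertain.

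The other genes of this class were low or close between the genotypes. Slc25a17, a peroxisomal carrier of cofactors such as coenzyme A, had 16.9 and 17.6 scaled reads in control and 20.6 and 18.2 in null libraries and did not pass (log2 fold change 0.16, limma adjusted p = 0.162). Slc25a24 stood at 12.4 and 11.2 in control and at 11.6 and 11.2 in null libraries, and Slc25a25, another ATP-magnesium carrier, at 6.15 and 6.69 and at 5.91 and 6.25. Both groups of values overlapped. Slc25a42 had 32 to 59 reads per library, and its log2 fold change of -0.24 had an interval from -0.54 to 0.05 and did not pass (limma adjusted p = 0.236). The summed level per kilobase of the class was 48.5% and 48.3% of the family in control and 50.2% and 50.7% in null libraries.

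The phosphate carrier Slc25a3, which brings in the phosphate used for ATP synthesis, did not differ beyond its spread. Control replicates 1 and 2 were at 122 and 133 scaled reads and null replicates 1 and 2 at 131 and 130, so the null values lay between the control values (log2 fold change 0.04, interval -0.08 to 0.16, limma adjusted p = 0.695). Its longest annotated transcript is 43.6% GC.

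Of the 3 carriers of di- and tricarboxylates 0 passed, and each had a negative log2 fold change. Slc25a11 stood at 39.9 and 39.3 scaled reads in control and 40 and 36.7 in null libraries, overlapping between the genotypes (log2 fold change -0.05, limma adjusted p = 0.646). Slc25a1, which exports citrate for lipid synthesis, was at 7.02 and 7.29 in control and 6.86 and 5.52 in null libraries. Its log2 fold change was -0.19 (limma adjusted p = 0.228), and it passed at 0.0441 without null replicate 1, so the value rested mostly on null replicate 2. Slc25a10, the dicarboxylate carrier, had 41 to 62 reads per library and stood at -0.08. All 3 belong to the GC-rich class, where 13 of 13 carriers were below 0 and the median over all genes was -0.13. With the GC trend removed Slc25a11 stood at 0.01, Slc25a1 at -0.04 and Slc25a10 at 0.10.

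Carriers of amino acids and carnitine held 7 members, of which 1, Slc25a22, fell, where 7.88% of all tested genes did. Slc25a12 and Slc25a13 both exchange aspartate for glutamate in the malate-aspartate shuttle. Slc25a12 overlapped between the genotypes, at 17.9 and 17.7 scaled reads in control and 18.4 and 17.4 in null libraries, whereas Slc25a13 was at 6.56 and 6.88 and at 7.63 and 7.52, without overlap (log2 fold change 0.15, limma adjusted p = 0.25). Slc25a20, which imports acylcarnitines for fatty acid oxidation, had 11.8 and 12.2 in control and 12.8 and 13.3 in null libraries, and did not pass either (0.11, adjusted p = 0.333). A stretch of 366 nt in its longest transcript recurs in other annotated transcripts, so that value is uncertain. Slc25a44, a carrier of branched-chain amino acids, stood at -0.10. Slc25a38, which takes up glycine for heme synthesis, stood at -0.08 with control replicate 2 apart, at 12.7 scaled reads against 9.50, 10.3 and 10.5 in the other libraries. Slc25a15, an ornithine carrier, was at -0.03.

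Of 8 carriers of cofactors, nucleotides and glutathione 1, Slc25a39, fell, where 7.88% of all tested genes did. Slc25a36 and Slc25a33 carry pyrimidine nucleotides. Slc25a36 stood at 61.9 and 54.2 scaled reads in control and 59.6 and 64.8 in null libraries, and Slc25a33 at 16.8 and 17.7 and at 17.3 and 15.7, both with overlap. Slc25a51, the NAD carrier, stood at 38.9 and 38.3 in control and 39.5 and 36.9 in null (log2 fold change -0.02, interval -0.15 to 0.12). Slc25a40, the paralog of Slc25a39, was far lower than it, at 2.58 and 3.03 in control and 3.38 and 2.87 in null libraries. Slc25a26, which imports S-adenosylmethionine, stood at 0.13 and did not pass. The class took 16.8% and 16.5% of the family's level per kilobase in control and 15.1% and 14.5% in null libraries.

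The iron importers, or mitoferrins, did not pass. Slc25a28 was at 7.31 and 7.88 scaled reads in control and 6.46 and 6.73 in null libraries (log2 fold change -0.18, limma adjusted p = 0.189), and Slc25a37, known best from red cell precursors, was at 5.33 and 3.95 and at 4.92 and 5.52 (0.15, adjusted p = 0.418). The values of Slc25a37 followed the order of the summed endothelial markers over the 4 libraries, with control replicate 2 lowest and null replicate 2 highest. Slc25a26 and Slc25a36 had that order too, a pattern chosen after the values were seen, and the part of these markers in the values was not tested. Exons of Slc25a37 overlap those of Gm31748 on the opposite strand by 381 nt.

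None of the remaining carriers described here passed limma at an adjusted p under 0.05. Slc25a46, an outer membrane protein involved in mitochondrial shape, had the highest log2 fold change of the family, at 15.6 and 13.9 scaled reads in control and 16.5 and 18.8 in null libraries. The groups did not overlap, but 0.25 (SE 0.0831, limma adjusted p = 0.0559) just missed the threshold, and with the GC trend removed it was 0.09. Its exons share 383 nt with B930094E09Rik on the opposite strand. Of the uncoupling-like carriers, Slc25a14 had 2.39 and 2.48 scaled reads in control against 2.34 and 3.01 in null libraries. Slc25a27 had 2.89 and 3.24 against 3.70 and 2.42, so that the null replicates lay on either side of both controls. Their log2 fold changes were 0.09 and -0.02. Among carriers without a settled substrate, Slc25a53 had 5.93 and 5.56 scaled reads in control against 7 and 5.52 in null libraries (log2 fold change 0.10). Slc25a35 had 1.23 and 1.28 against 1.04 and 0.901 (-0.20), and it overlaps Rangrf by 1151 nt on the opposite strand, which makes its low count uncertain. Slc25a16, linked to coenzyme A, and Slc25a32 stood at 0.03 and 0.06.

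Counting every carrier, 6 were higher in both null libraries than in either control library and 9 were lower, while 19 overlapped. These are 17.6% and 26.5% of the family, where 30.2% and 31.3% of all tested genes were separate in those directions. The 6 were Slc25a4, Slc25a5, Slc25a13, Slc25a17, Slc25a20 and Slc25a46. The 9 included the 3 that fell and also Slc25a1, Slc25a28, Slc25a35, Slc25a42 and Slc25a44. Reads of overlapping genes could not be told apart in the counts of some other members. Exons of Slc25a11 overlap Rnf167 by 189 nt, those of Slc25a25 overlap Naif1 by 379 nt and those of Slc25a26 overlap Lrig1 by 144 nt, each on the opposite strand, and noncoding partners (Gm11788, Gm13068 and Gm25692) overlap Slc25a10, Slc25a33 and Slc25a51. Slc25a36 and Slc25a40 have near-identical copies in Gm13217 and Gm5066, Slc25a37 shares 382 nt with Gm16867 and 381 nt with Gm37847, and Slc25a12 shares 247 nt with Adpgk. The values of these genes carry that uncertainty.

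Within paralog pairs the balance moved by a few percentage points at most, measured as a share of the pair's level per kilobase. Slc25a4 made up 75% and 74.7% of the ADP/ATP carrier level in control and 73.7% and 73.3% in null libraries, a difference of -1.29 points without overlap. Slc25a13 made up 42.8% and 44.2% of the aspartate-glutamate carriers in control and 45.8% and 46.7% in null libraries, 2.80 points more. The GC contents are 46.6% for Slc25a12 and 47.0% for Slc25a13. With the GC trend removed Slc25a13 stood at 0.10 (limma adjusted p = 0.572) and Slc25a12 at -0.01. Slc25a39 took 97.7% and 97.5% of its pair with Slc25a40 in control and 96.6% and 96.7% in null libraries. GC contents lie further apart in these other pairs, at 51.8% and 48.6% for Slc25a4 and Slc25a5 and 59.7% and 39.4% for Slc25a39 and Slc25a40.

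For the ATP-magnesium carriers, Slc25a24 made up 41.7% and 38.6% of the sum with Slc25a23 and Slc25a25 in control and 44.1% and 42.8% in null libraries. Slc25a37 stood at 21.1% and 15.6% of the mitoferrins in control and 21.9% and 23.2% in null libraries, and without control replicate 2 the difference of 4.16 points was 1.37. The share of Slc25a33 in its pair with Slc25a36 overlapped, at 43.0% and 47.5% in control and 44.6% and 40.2% in null libraries. GC contents are 42.5%, 56.4% and 49% for Slc25a24, Slc25a23 and Slc25a25. They are 48.2% and 53.5% for Slc25a37 and Slc25a28, and 53.8% and 40.7% for Slc25a33 and Slc25a36. The part of GC content in the paralog shares was not tested. For the 5 shares without overlap the exact permutation p was 0.333 (two-sided). With 2 libraries a group it cannot be smaller, so none can pass a threshold of 0.05.

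**Figure D4:**
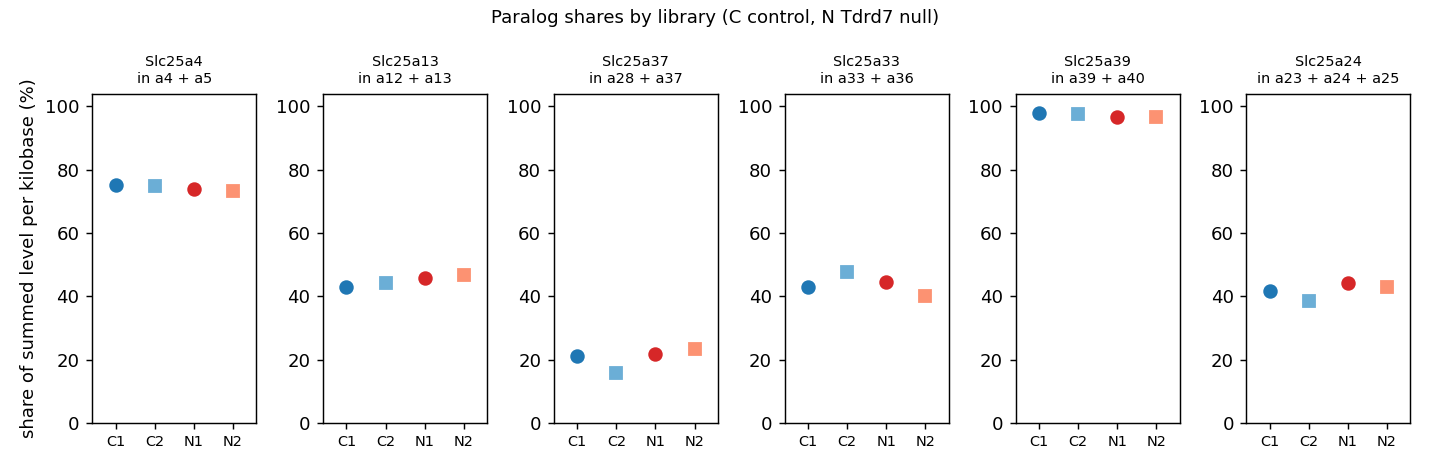
Share of 1 gene in the summed level per kilobase of its paralogs, in percent, for each library (C1 and C2 control, N1 and N2 null). Slc25a4 and Slc25a39 hold most of their pairs in all 4 libraries, and the differences between genotypes are small beside the full scale.

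In lists of genes that work with the carriers, between 0 and 3 genes were called per list, where 10.1% of all tested genes were higher and 7.88% lower. Carriers reach the inner membrane through the TOM complex of the outer membrane and small TIM chaperones. Of 15 measured genes of this import route 2 rose and 1 fell, a share close to the 18% of all genes, with a median log2 fold change of 0.09. Tomm7 rose from 24 ± 3.10 to 33.2 ± 3.54 scaled reads (SD, n = 2) and Tomm22 from 30.5 ± 1.74 to 38.2 ± 3.66, both subunits of the TOM complex (limma adjusted p = 0.0057 and 0.0128). Timm10b, a small TIM protein, fell from 3.95 ± 0.241 to 2.79 ± 0.112 (limma adjusted p = 0.0288). With the GC trend removed these stood at 0.26, 0.19 and -0.41, and 0 of the 15 passed limma.

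Other transporters of the inner membrane held 2 genes that rose and 0 that fell among 15, near the 10.1% of all genes that were higher. Micu2, a regulator of the calcium uniporter and 1 of the 2, went from 74.2 ± 1.54 to 89.3 ± 6.53 scaled reads (SD, n = 2, limma adjusted p = 0.0118). Of the 3 outer membrane channels of the Vdac family, Vdac3 rose (log2 fold change 0.28). Of 3 measured relatives of the carriers with other symbols, Ucp2, Mtch1 and Mtch2, 0 passed limma. With the GC trend removed Micu2 and Vdac3 stood at 0.19 and 0.09, and neither passed.

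Of 13 genes of iron and heme supply 1 rose and 0 fell, which is not above the 10.1% of all genes that were higher. Tfrc, the transferrin receptor, rose from 28.6 ± 0.414 to 39.2 ± 1.70 scaled reads (SD, n = 2, log2 fold change 0.44, limma adjusted p = 0.00123). It still passed with the GC trend removed, at 0.27 (limma adjusted p = 0.0315).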

How the data were processed

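Polyadenylated RNA of whole mouse lenses was sequenced in 4 libraries, 2 per genotype, made with a TruSeq kit that keeps no strand, per the series' design text. The submitters' processing notes name the build mm10 (GRCm38) and, as tools, Cuffnorm, Cufflinks, TopHat2 2.0.9 and Trimmomatic. The authors' counter and scaling factor are details not given in the sources used here. All deposited signal values were whole multiples of 1 step per library (100% within 0.001 of a read), so that step was taken as 1 read and each library as scaled by 1 factor. Genes were tested as log2(scaled reads + 1), computed from the deposited values, for 10696 genes whose mean was 1 or more, with limma 3.58.1 in R 4.3.3 (intensity-dependent prior, two-sided, Benjamini-Hochberg adjustment over all tested genes). Fold changes are on that scale, which understates those of low genes. The prior added 11.1 to 2 residual degrees of freedom. Lengths, GC content and exon overlaps came from GENCODE M21 (GRCm38), where 10750 of the 10790 genes were found, with 20 of the 34 carriers at the same start and end as in the deposited table. The GC and length trend was removed with natural splines of 5 degrees of freedom each. Copies were sought with BLAST 2.17.0 (at least 95% identity over 200 nt). Exact permutation tests ran in Python 3.11.15, and the fit was tested on simulated data.

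Named carriers were to be those called or with an adjusted p under 0.1, the 8 highest per length, the 2 highest of each role class and all paralog pairs, and list genes the called ones. Most of the rest are named too. Members and lists were chosen with earlier results of these data known. The other 13 protein-coding Slc25a genes of GENCODE M21 were not analysed here, and a few genes that fall under the naming rule are not reported here.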

Additional observations from a re-analysis of the deposited data

How the results depend on the processing

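The count of 3 carriers that fell and 0 that rose was kept with pseudocounts of 0.1 and 5, no filter, and scaling by trimmed means, by median ratios or without the crystallins. It moved under other settings. The number that fell was 0 with a prior without the intensity trend, 0 with the GC and length trend removed, 0 with that removal and the replicate block together, and 0 with the trend taken from principal transcripts, a setting chosen after seeing the data. Over fits without 1 library it ran from 0 to 4. The number that rose was 1 with a minimum mean of 5 scaled reads, 1 with a robust prior and 1 with the replicate block (Slc25a46 in each), 2 at an adjusted p under 0.1, and 0 to 1 without 1 library. The total of 1920 called genes became 990 with total-count scaling, 16 without the intensity trend, 350 with the GC and length trend removed, 408 with that and the replicate block, and 303 with the trend of principal transcripts, and it ran from 431 to 2196 without 1 library. In fits without 1 library the lone pool is assumed to vary like the others. The replicate numbers name no shared animal or day in the labels. Deviations of same-numbered libraries from their group means had a weak negative correlation (r = -0.151 across genes). With 2 libraries a group, the crossed pairing has the same value with the opposite sign (0.151). A crossed pairing, chosen after seeing the data, called 2 carriers higher, 3 lower and 3036 genes in all. With 2 libraries per genotype the block leaves 1 residual degree of freedom, so these fits rest on the prior. Read numbers are inferred from the spacing of the deposited values and could not be checked against raw counts, so the planned edgeR and DESeq2 fits, which need raw counts, were not run. The order of the decreases depends on the pseudocount: at 0.1 the log2 fold changes were -0.42 for Slc25a42, which did not pass, -0.35 for Slc25a23 and -0.33 for Slc25a39.

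The family's share of scaled reads was 0.000806 percentage points higher in Tdrd7 null lenses, reversed to -0.00577 of reads outside the crystallins, and ran from -0.00215 to 0.00376 without 1 library. The Slc25a37 share of the mitoferrins moved from 4.16 points to between 1.37 and 6.95 without 1 library. The median log2 fold change over carriers was -0.017 in the main fit. Over the settings run it went from -0.052 (scaling without the crystallins) to 0.009 (without null replicate 2).

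Genes that changed sign were uncalled ones. Scaling without the crystallins put Slc25a3 at -0.00, Slc25a12 at -0.03 and Slc25a16 at -0.01. Removal of the GC and length trend, with or without the replicate block, put Slc25a3 at -0.07, Slc25a11 at 0.01, Slc25a36 at -0.05, Slc25a38 at 0.01, Slc25a12 at -0.01, Slc25a53 at -0.04, Slc25a16 at -0.11, Slc25a40 at -0.07, Slc25a10 at 0.10 and Slc25a32 at -0.08. With principal transcripts these were -0.04, 0.01, -0.06, 0.01, -0.01, -0.05, -0.12, -0.11, 0.10 and -0.09, and Slc25a25 was 0.07. Without 1 library the ranges that crossed 0 were -0.02 to 0.09 for Slc25a3, -0.11 to 0.01 for Slc25a11, -0.13 to 0.00 for Slc25a33, -0.06 to 0.03 for Slc25a51, -0.27 to 0.11 for Slc25a38, -0.11 to 0.02 for Slc25a24, -0.03 to 0.05 for Slc25a12, -0.05 to 0.25 for Slc25a53, -0.09 to 0.14 for Slc25a16, -0.04 to 0.22 for Slc25a14, -0.02 to 0.28 for Slc25a26, -0.03 to 0.33 for Slc25a37, -0.07 to 0.01 for Slc25a15, -0.25 to 0.21 for Slc25a27, -0.17 to 0.01 for Slc25a10 and -0.08 to 0.20 for Slc25a32. The cause of these moves was not tested.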
